A study of Mus musculus with 24 samples.

Results

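The hearts of mice taken late in the dark phase were compared with those of mice taken early in it. The late time was ZT23, an hour before lights-on, and it was set against ZT15, where ZT (zeitgeber time) counts the hours after lights-on and the lights were on for 12 h and off for 12 h. All mice were male wild-type C57Bl/6, 8 weeks old, with no treatment or genetic change named. Hearts were frozen at collection, and RNA of the tissue labelled myocardium was put on Affymetrix arrays. The comparison holds 8 of the 24 arrays of the series, 4 labelled ZT23 and 4 labelled ZT15, each called a biological replicate. The other 16 arrays, 4 of them at ZT19, entered only the estimate of the spread between arrays or the course of the dark phase.

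Each value is a log2 signal of a gene minus that gene's median over the 24 arrays, so 0 is the gene's median over the day and levels of different genes cannot be compared. The labelled tissue could not be checked against marker levels for the same reason. A difference is ZT23 minus ZT15 and is given with its standard error (SE), and single values are given in the order of replicates 1 to 4. The SE is for means of 4 arrays against 4, but it takes the spread within time points over all 24 arrays. For a single gene it can therefore be smaller or larger than the spread of the 8 values shown would give. The 8 arrays had standard deviations (SD) over all probe sets of 0.108 to 0.122, apart from ZT23 replicate 4 (0.155) and ZT15 replicate 1 (0.171). Pairwise correlations of the 8 arrays lay between -0.22 and 0.28, and no 2 of all 24 arrays were identical.

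In the molecular clock, the proteins BMAL1 (encoded by Arntl) and CLOCK, or its relative NPAS2, bind E-box sequences and switch on the Per and Cry genes, whose proteins then repress them. The same pair switches on the REV-ERB repressors Nr1d1 and Nr1d2, which act with the opposing ROR activators on ROR elements of Arntl and of Nfil3, and also switches on Dbp, Tef and Hlf, which act on D-box sequences. Mice are active and feed in the dark, so ZT15 falls early and ZT23 late in the active phase. In heart muscle the clock is known to affect metabolism, contraction and excitability.

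Between early and late dark phase 374 of 22180 genes (1.69%) passed limma's test at an adjusted p below 0.05. Of these, 111 were higher (0.5% of all genes) and 263 lower (1.19%) at ZT23, and 2700 genes passed an unadjusted p of 0.05. The median change of the called genes was 1.27-fold. It reached 1.5-fold in 51 genes, 14 higher and 37 lower, and 2-fold in 10. The 10 were Arntl, Slc41a3 and Spon2, which were higher at ZT23, and Mt2, Dbp, Nr1d2, Tcap, Per3, Zbtb16 and Per1, which were lower. In 354 of the 374 the 4 values at ZT23 and the 4 at ZT15 did not overlap, against 1420 (6.4%) of all genes. The median difference over all genes was -0.0054.

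The count depends on how the spread is estimated. With the 8 arrays alone 146 genes were called, 37 higher and 109 lower, and 131 of them were among the 374. Without ZT15 replicate 1, whose values spread most, 251 genes (1.13%) were called, of which 225 were among the 374. Without the 3 arrays of largest SD, which are ZT15 replicate 1, ZT23 replicate 4 and an array of the light phase, there were 201. Of the 15 largest rises and 15 largest falls (predicted genes left out), 29 were called without ZT15 replicate 1, 27 without the 3 arrays and 24 with the 8 arrays alone.

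**Figure D1:**
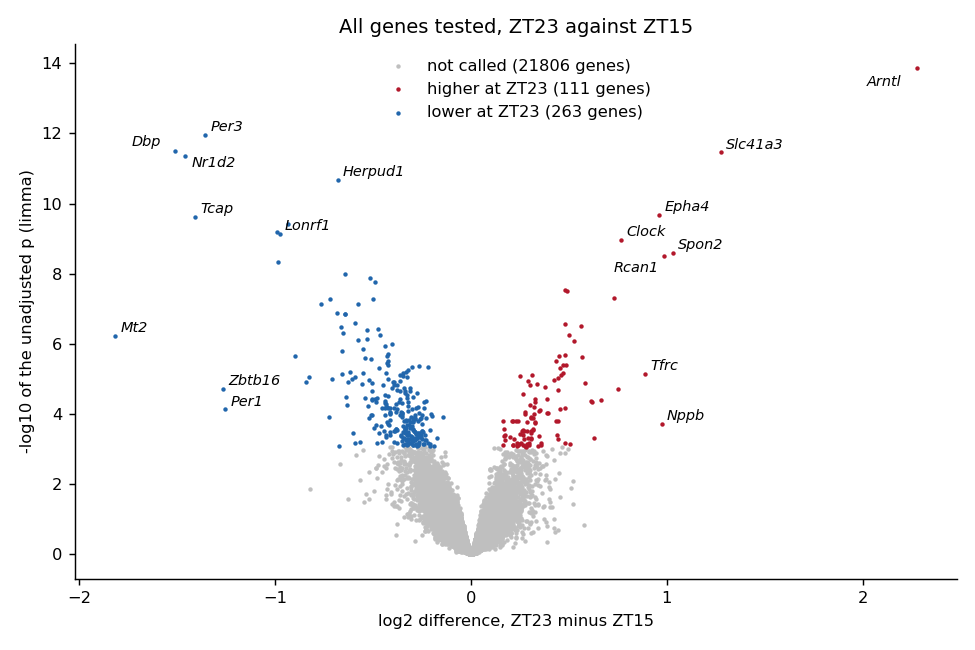
Each point is one of 22180 genes. The horizontal axis is the log2 difference ZT23 minus ZT15 and the vertical axis is -log10 of the unadjusted p of limma's test. Red points are the 111 genes higher and blue points the 263 genes lower at ZT23. Arntl stands far to the right, and Mt2, Dbp and Nr1d2 are farthest to the left.

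The activating arm of the clock was high late in the dark phase. Arntl had values of 1.25, 1.40, 1.41 and 1.15 at ZT23, against -0.998, -0.93, -1.02 and -0.95 at ZT15. The groups lay far apart, with all ZT23 arrays above 1 and all ZT15 arrays below -0.9. The difference was 2.28 ± 0.12, a 4.85-fold change and the largest of all genes (adjusted p = 3.1e-10). Clock, the partner of BMAL1, had 0.47, 0.40, 0.54 and 0.41 at ZT23, against -0.47, -0.36, -0.33 and -0.10 at ZT15. Every ZT23 value lay above every ZT15 value, and the difference was 0.77 ± 0.075 (adjusted p = 2.03e-06). Npas2, which can stand in for Clock, had 0.37, 0.42, 0.90 and 0.29 at ZT23, against -0.33, 0.17, 0.0064 and -0.34 at ZT15. Here ZT23 replicate 3 was the highest and the groups stayed apart by a small margin (0.62 ± 0.12, adjusted p = 0.00729); with the 8 arrays alone the call was lost (adjusted p = 0.154). The ROR activators gave no call. Rora differed by -0.24 ± 0.070 (adjusted p = 0.0994) and Rorb by -0.067 ± 0.060 (adjusted p = 0.75). Thus 3 of 5 measured activators rose and 0 fell (60% called, against 1.69% of all genes), with a median of 0.62.

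The repressing arm ran the other way, and 6 of its 11 measured genes fell while 0 rose (54.5% called, against 1.69% of all genes, median -0.45). Per3 had -0.93, -0.96, -0.83 and -0.76 at ZT23, against 0.49, 0.43, 0.47 and 0.56 at ZT15. The values within each time lay within about 0.2 of each other, and the groups were more than 1 log2 unit apart (-1.36 ± 0.091, adjusted p = 1.22e-08). Per1, a period gene that also answers quickly to hormones, had -0.75, -0.82, -0.63 and -1.28 at ZT23, against 0.50, 0.45, 0.62 and -0.027 at ZT15. ZT23 replicate 4 and ZT15 replicate 4 were the lowest of their groups, which did not overlap (-1.25 ± 0.26, adjusted p = 0.00999); without the 3 arrays of largest SD the adjusted p was 0.0831. Cry2, a cryptochrome, had -0.23, -0.43, 0.0044 and -0.19 at ZT23, against 0.25, 0.31, 0.054 and 0.37 at ZT15. The groups came within 0.05 of each other (-0.45 ± 0.092, adjusted p = 0.0095), and the call was lost with the 8 arrays alone (adjusted p = 0.0909) and without the 3 arrays (adjusted p = 0.0509).

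The REV-ERB genes differed in where they stood at ZT15. Nr1d2 had -1.17, -1.15, -1.09 and -1.34 at ZT23, against 0.024, 0.38, 0.34 and 0.34 at ZT15, so that all arrays of ZT15 were at or above the daily median and ZT15 replicate 1 was the lowest of them (-1.46 ± 0.11, adjusted p = 1.92e-08). Nr1d1 had -1.51, -1.08, -0.92 and -0.98 at ZT23, against -0.60, -0.29, -0.16 and -0.13 at ZT15. It was below its daily median on all 8 arrays, and lower still at ZT23 (-0.83 ± 0.14, adjusted p = 0.00241; adjusted p = 0.0536 after quantile normalization). Ciart, a repressor of CLOCK and BMAL1, had -0.38, -0.41, -0.38 and -0.13 at ZT23, against 0.13, 0.48, 0.52 and 0.20 at ZT15. They did not overlap, with ZT23 replicate 4 the highest of its group (-0.66 ± 0.11, adjusted p = 0.00216).

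The other repressors did not pass. Cry1, the other cryptochrome gene, had 0.20, 0.058, 0.15 and 0.22 at ZT23, against 0.21, 0.19, 0.20 and 0.29 at ZT15. Both groups lay above the daily median and overlapped (-0.064 ± 0.080, adjusted p = 0.838), in contrast to Cry2; the difference between the pair was not tested. Bhlhe40 and Bhlhe41, which compete for E-boxes, differed by -0.33 ± 0.11 (adjusted p = 0.161) and by -0.34 ± 0.11 (adjusted p = 0.146). The kinase gene Csnk1e differed by -0.10 ± 0.070 (adjusted p = 0.655), and Fbxl21, a ubiquitin ligase subunit for cryptochromes, by -0.0056 ± 0.036 (adjusted p = 0.976).

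**Figure D2:**
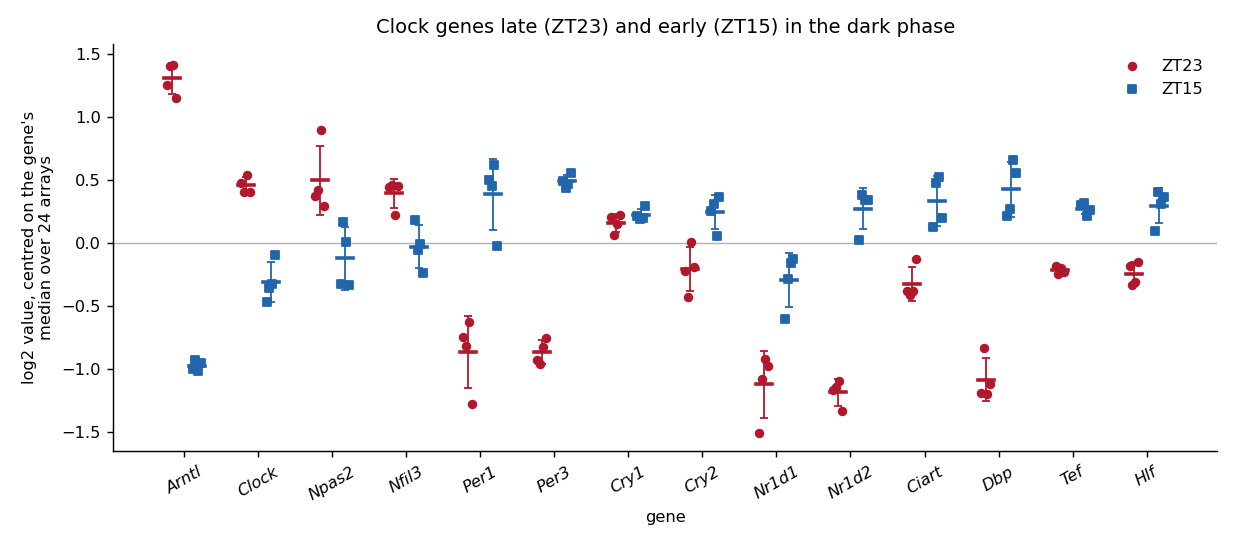
Values of 14 clock genes on each array, in log2 units relative to the gene's median over 24 arrays. Red circles are the 4 ZT23 arrays and blue squares the 4 ZT15 arrays; wide bars are means and thin bars SD. Arntl, Clock, Npas2 and Nfil3 lie higher at ZT23, Cry1 overlaps, and the other 9 genes lie lower at ZT23.

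Most output factors fell with the repressors. Of 10 measured, 6 fell and 1 rose (70% called, against 1.69% of all genes, median -0.51). Dbp, a D-box activator, had -1.19, -0.83, -1.20 and -1.12 at ZT23, against 0.21, 0.27, 0.66 and 0.55 at ZT15. Its groups were about a log2 unit apart at the nearest points (-1.51 ± 0.11, adjusted p = 1.92e-08). The related activators Tef and Hlf fell by less. Hlf had -0.18, -0.34, -0.31 and -0.15 at ZT23, against 0.10, 0.40, 0.31 and 0.37 at ZT15, with no overlap (-0.54 ± 0.085, adjusted p = 0.00107). Tef fell as the mean of its probe sets (-0.49 ± 0.056, adjusted p = 2.15e-05), but 1 of them gave -0.86 ± 0.096 (adjusted p = 1.6e-05) and the other -0.11 ± 0.070 (adjusted p = 0.579). Nfil3, a repressor at D-boxes, was the member that rose. It had 0.44, 0.45, 0.22 and 0.45 at ZT23, against 0.18, -0.058, -0.0070 and -0.24 at ZT15, and ZT23 replicate 3 came close to ZT15 replicate 1 without crossing it (0.42 ± 0.074, adjusted p = 0.00279; adjusted p = 0.0933 with the 8 arrays alone).

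Usp2, a deubiquitinase, fell with values of -0.26, -0.40, -0.47 and -0.27 at ZT23, against 0.24, 0.37, 0.30 and 0.26 at ZT15. There was no overlap (-0.64 ± 0.071, adjusted p = 1.41e-05). Klf9, a transcription factor that glucocorticoids induce, fell as well (-0.53 ± 0.076, adjusted p = 0.000413), again with no overlap. Wee1, a kinase that restrains mitosis, had -0.011, 0.060, -0.55 and -0.60 at ZT23, against -0.0053, 0.48, 0.55 and 0.76 at ZT15. ZT23 replicate 2 lay above ZT15 replicate 1, so the groups overlapped (-0.72 ± 0.15, adjusted p = 0.0141), and the call was lost when any of 3 arrays was left out (highest adjusted p = 0.0656) and with the 8 alone (adjusted p = 0.19). Klf15, a regulator of cardiac lipid and amino acid metabolism, missed the threshold (-0.41 ± 0.11, adjusted p = 0.0519), as did Nampt, the enzyme of NAD salvage (-0.26 ± 0.078, adjusted p = 0.103), and Klf10 (0.011 ± 0.094, adjusted p = 0.981).

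Promoters of 4 of these clock genes are shown because they hold the letters through which the clock proteins are known to act and belong to genes that rose together or fell together. They are RefSeq windows of mouse GRCm38.p6, from 250 bases before to 50 after a transcription start, written 5′ to 3′ on the strand of the gene. Capitals mark TAGGTCA, the core of a ROR element, in Arntl (chr7:113207261-113207560, plus strand) and, as its reverse complement, in Nfil3 (chr13:52980990-52981289, minus strand). In Ciart (chr3:95882179-95882478, minus strand) capitals mark the E-box CACGTG, and in Per3 (chr4:151044616-151044915, minus strand) the D-box TTATGTAA.
Arntl: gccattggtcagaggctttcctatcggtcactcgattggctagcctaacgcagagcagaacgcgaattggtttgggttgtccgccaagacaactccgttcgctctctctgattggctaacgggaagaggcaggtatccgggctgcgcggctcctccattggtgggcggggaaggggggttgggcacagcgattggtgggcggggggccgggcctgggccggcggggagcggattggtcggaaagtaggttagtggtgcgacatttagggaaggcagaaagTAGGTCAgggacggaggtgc
Nfil3: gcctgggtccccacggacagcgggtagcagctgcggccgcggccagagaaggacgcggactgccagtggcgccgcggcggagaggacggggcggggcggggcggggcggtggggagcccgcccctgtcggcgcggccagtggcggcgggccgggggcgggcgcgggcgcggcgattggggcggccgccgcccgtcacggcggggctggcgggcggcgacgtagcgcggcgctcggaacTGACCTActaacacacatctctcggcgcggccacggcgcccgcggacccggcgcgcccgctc
Ciart: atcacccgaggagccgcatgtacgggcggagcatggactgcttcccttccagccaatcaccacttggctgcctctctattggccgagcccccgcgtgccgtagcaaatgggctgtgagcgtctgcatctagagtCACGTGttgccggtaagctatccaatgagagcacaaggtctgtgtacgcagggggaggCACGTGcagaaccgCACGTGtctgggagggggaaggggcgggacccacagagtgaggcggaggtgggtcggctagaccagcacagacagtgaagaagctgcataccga
Per3: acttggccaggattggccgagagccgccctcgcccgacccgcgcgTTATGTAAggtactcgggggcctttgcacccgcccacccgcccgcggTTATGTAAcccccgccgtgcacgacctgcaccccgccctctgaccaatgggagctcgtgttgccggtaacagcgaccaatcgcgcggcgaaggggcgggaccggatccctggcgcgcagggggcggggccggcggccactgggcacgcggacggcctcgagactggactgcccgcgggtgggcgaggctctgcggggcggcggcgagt
In Arntl the match begins at base 31 from the start, in 1 of the gene's 2 windows, and in Nfil3 12 bases before it. Ciart holds its 3 matches 116, 58 and 44 bases before the start, and Per3 its 2 matches 205 and 158 bases before.

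Both strands were searched for these 3 motifs, none of which contains another. Of the clock genes with a window, TAGGTCA stood in 2 of the 4 that rose, 0 of the 11 that fell and 0 of the 8 not called. CACGTG stood in 0 of the 4, 3 of the 11 (Per1, Ciart and Tef) and 3 of the 8 (Cry1, Bhlhe41 and Klf15), and TTATGTAA in Per3 alone. Of all 32851 windows, 2.61% held TAGGTCA, 7.15% CACGTG and 0.938% TTATGTAA. Counted by gene, TAGGTCA stood in 5 of 91 called genes that rose (5.49%) and 1 of 201 that fell (0.498%), against 2.72% of all 16990 tested genes with a window. CACGTG stood in 11 that rose (12.1%) and 20 that fell (9.95%), against 9.19%, and TTATGTAA in 0 and 2 (0.995%), against 1.01%. The matches are a description of these windows and show no binding.

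Outside the clock, the largest rise was that of Slc41a3, of a magnesium transporter family. It had 0.16, 0.41, 0.45 and 0.45 at ZT23, against -1.12, -0.86, -0.75 and -0.89 at ZT15. All ZT23 arrays were above the daily median and all ZT15 arrays at least 0.7 below it (1.28 ± 0.091, adjusted p = 1.92e-08, a 2.42-fold change). Spon2, which encodes a secreted matrix protein, had 0.69, 0.84, 1.07 and 0.94 at ZT23, against -0.026, -0.27, -0.32 and 0.026 at ZT15. Again there was no overlap (1.03 ± 0.11, adjusted p = 4.29e-06), and the ZT15 values lay near the daily median. Epha4, a receptor for ephrins, had 0.28, 0.23, 0.34 and 0.078 at ZT23, against -0.86, -0.59, -0.85 and -0.60 at ZT15, again with no overlap (0.96 ± 0.085, adjusted p = 6.56e-07). Tfrc, the transferrin receptor through which cells take up iron, had 0.56, 0.43, -0.030 and 0.36 at ZT23, against -0.62, -0.52, -0.73 and -0.38 at ZT15. ZT23 replicate 3 was the lowest of its group but stayed above all ZT15 values (0.89 ± 0.15, adjusted p = 0.00219). Klhdc8a, a kelch-domain gene, rose by 0.73 ± 0.089 (adjusted p = 5.04e-05).

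The largest fall was that of Mt2, a metal-binding metallothionein. It had -0.85, -0.90, -1.20 and -0.89 at ZT23, against 0.32, 0.61, 1.39 and 1.09 at ZT15. The ZT15 values spread over more than 1 log2 unit, yet none came near the ZT23 values (-1.81 ± 0.26, adjusted p = 0.000339, a 3.52-fold change). Zbtb16, a zinc finger regulator, had 0.077, -0.22, -0.72 and -0.53 at ZT23, against 1.05, 1.16, 1.05 and 0.39 at ZT15. ZT15 replicate 4 was well below the other 3 and still above all ZT23 values (-1.26 ± 0.23, adjusted p = 0.00392). Fmo2, a flavin-containing monooxygenase, fell by 0.99 on the log2 scale (adjusted p = 6.93e-06). Lonrf1, a RING finger gene, had -0.24, -0.29, -0.36 and -0.29 at ZT23, against 0.94, 0.57, 0.66 and 0.56 at ZT15, with no overlap (-0.98 ± 0.093, adjusted p = 1.47e-06). Aldh1a1, which makes retinoic acid, had -0.17, 0.082, -0.29 and -0.72 at ZT23, against 1.03, 0.56, 0.51 and 0.40 at ZT15. The groups were separate (-0.90 ± 0.14, adjusted p = 0.00101), though the adjusted p was 0.0796 with the 8 arrays alone. The secreted factor Angptl7 (-0.84 ± 0.15, adjusted p = 0.0029) and Gpcpd1, an enzyme of glycerophosphocholine breakdown (-0.76 ± 0.10, adjusted p = 6.68e-05), were also among the 15 largest falls, as were Timp3 and Tcap, which are described with their groups.

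Genes that glucocorticoids are known to induce were mostly lower late in the dark phase. Of 28 measured, 8 fell and 1 rose, 32.1% called against 1.69% of all genes, with a median of -0.22. Fkbp5, a chaperone of the glucocorticoid receptor, had -0.0092, -0.21, -0.35 and -0.30 at ZT23, against 0.43, 0.45, 0.52 and 0.33 at ZT15. Its groups did not overlap (-0.65 ± 0.092, adjusted p = 0.0003). Beside Mt2, Zbtb16, Per1 and Klf9, the falls included Sult1a1, a sulfotransferase (-0.51 ± 0.093, adjusted p = 0.00434), Pik3r1, a regulatory subunit of PI3 kinase (-0.51 ± 0.10, adjusted p = 0.00663), and Cebpb, a transcription factor named here after its values were seen (-0.41 ± 0.086, adjusted p = 0.0121). Cdkn1a, which encodes the cell cycle inhibitor p21 and is also induced by p53, was the gene that rose. It had 0.52, 0.57, 0.27 and 0.28 at ZT23, against -0.35, -0.45, 0.20 and -0.40 at ZT15, where ZT15 replicate 3 stood above the other 3 of its group but below all ZT23 values (0.66 ± 0.13, adjusted p = 0.0068). With the 8 arrays alone the list held 6 calls, and those of Sult1a1 (adjusted p = 0.0633), Pik3r1 (adjusted p = 0.0837) and Cdkn1a (adjusted p = 0.0992) were lost.

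Cytosolic heat shock genes gave 0 calls among 25 in limma's test, where 1.69% of all genes were called. At an unadjusted p below 0.05 there were 6, against 2700 of all 22180 genes. Hspa1a, the inducible HSP70, had 0.048, 0.074, 0.067 and 0.67 at ZT23, against 0.78, 0.62, 0.36 and 0.60 at ZT15. Replicate 4 at ZT23 reached the ZT15 values and the other 3 did not (-0.37 ± 0.11, adjusted p = 0.1). Without that array, singled out because its value ran against the difference, the adjusted p was 0.00167. In 14 of 17 alternative settings Hspa1a was not called. Its co-chaperone Bag3 had -0.017, -0.16, -0.033 and 0.035 at ZT23, against 0.27, 0.32, 0.23 and 0.21 at ZT15, with no overlap (-0.30 ± 0.082, adjusted p = 0.0676; adjusted p = 0.0406 with the 8 arrays alone). Of 2 measured cold-related RNA-binding protein genes, Cirbp fell. It had -0.44, -0.40, -0.34 and -0.42 at ZT23, against 0.040, -0.12, -0.044 and -0.16 at ZT15, with no overlap (-0.33 ± 0.072, adjusted p = 0.0166), and the call was lost without ZT15 replicate 1 (adjusted p = 0.0682) and without ZT23 replicate 4 (adjusted p = 0.0527). Srsf5, a splicing factor, differed by 0.034 ± 0.084 (adjusted p = 0.933).

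Endoplasmic reticulum genes moved in both directions. Of 24, 2 fell and 1 rose (12.5% called, against 1.69% of all genes, median 0.073). Herpud1, which acts in degradation of misfolded proteins at this membrane, had -0.26, -0.19, -0.21 and -0.062 at ZT23, against 0.44, 0.52, 0.57 and 0.46 at ZT15. Each group spread over about 0.2 and the groups were separate by about 0.5 (-0.68 ± 0.053, adjusted p = 7.79e-08). Sel1l, of the same degradation machinery, fell by less (-0.27 ± 0.070, adjusted p = 0.049), and that call was lost without any 1 of the 8 arrays (highest adjusted p = 0.164). Hspa5, the main chaperone of the compartment, had -0.0061, 0.079, 0.072 and 0.28 at ZT23, against -0.12, -0.25, -0.13 and -0.12 at ZT15. The groups did not overlap (0.26 ± 0.061, adjusted p = 0.0255), and the call was lost without either of 2 arrays, ZT23 replicate 4 (adjusted p = 0.0987) and ZT15 replicate 2 (adjusted p = 0.0987).

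Lists of fuel metabolism held between 0 and 4 called genes each, 0% to 17.4% of their members, against 1.69% of all genes. Among 23 genes of glucose uptake and glycolysis 1 fell and 0 rose (median 0.011). This was the glucose transporter Slc2a1 (-0.23 ± 0.045, adjusted p = 0.00705), and singly its probe sets gave adjusted p = 0.0137 and adjusted p = 0.901. Pfkp, a phosphofructokinase, differed by 0.24 ± 0.070 (adjusted p = 0.0903). Of 17 glycogen genes 1 fell, the phosphatase targeting subunit Ppp1r3b (-0.30 ± 0.075, adjusted p = 0.0469), and the call was lost when any of 7 arrays was left out (highest adjusted p = 0.167) and in both of its probe sets tested singly (adjusted p = 0.275 and 0.148). In limma's test 0 of 13 genes of the pyruvate dehydrogenase complex and its regulators passed, also at an unadjusted p below 0.05.

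Among 29 genes of fatty acid uptake and oxidation 1 fell (3.45% called, against 1.69% of all genes). This was Ppara, a nuclear receptor that governs the pathway. It had 0.015, -0.10, -0.30 and -0.14 at ZT23, against 0.10, 0.27, 0.17 and 0.13 at ZT15, with no overlap (-0.30 ± 0.068, adjusted p = 0.0249), and the call was lost when any of 4 arrays was left out (highest adjusted p = 0.104). The lipid droplet gene Plin5 differed by 0.31 ± 0.082 (adjusted p = 0.0578). Triglyceride genes had 3 falls and 1 rise among 23 (17.4% called, median -0.030). Dgat2, which makes the final bond of a triglyceride, had -0.035, -0.33, -0.15 and -0.21 at ZT23, against 0.48, 0.36, 0.29 and 0.18 at ZT15, with no overlap (-0.51 ± 0.081, adjusted p = 0.00114). Gpam, which starts the synthesis, had -0.25, -0.39, -0.42 and -0.41 at ZT23, against -0.033, 0.10, 0.039 and 0.13 at ZT15, and again the groups did not overlap (-0.42 ± 0.068, adjusted p = 0.00128). The lipase gene Pnpla2 fell by 0.29 on the log2 scale (adjusted p = 0.0348), a call lost when any of 5 arrays was left out (highest adjusted p = 0.132). Lpin1, a phosphatidate phosphatase, rose. It had 0.026, -0.12, 0.11 and 0.037 at ZT23, against -0.35, -0.32, -0.22 and -0.28 at ZT15, with no overlap (0.31 ± 0.066, adjusted p = 0.0147), and was not called without ZT15 replicate 1 (adjusted p = 0.0562). Of 21 genes of sterol and fatty acid synthesis 1 rose (4.76% called). This was Hmgcs1, an enzyme of cholesterol synthesis (0.24 ± 0.052, adjusted p = 0.0164). Its call was lost when any of 4 arrays was left out (highest adjusted p = 0.0676). Elovl6, which elongates fatty acids, differed by 0.28 ± 0.10 (adjusted p = 0.193).

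Signalling by insulin and nutrients had 4 falls and 1 rise among 31 genes (16.1%, against 1.69% of all genes), with a median of 0.0096. None of the 5 was called with the 8 arrays alone. Beside Pik3r1, Foxo3, a transcription factor held back by insulin, fell (-0.36 ± 0.076, adjusted p = 0.0127), as did Eif4ebp1, which restrains translation (-0.31 ± 0.070, adjusted p = 0.0198), and Sesn1, an inhibitor of mTORC1 (-0.33 ± 0.080, adjusted p = 0.0359). Irs1, the insulin receptor substrate, had 0.21, 0.0037, 0.074 and 0.012 at ZT23, against -0.21, -0.14, -0.20 and -0.29 at ZT15. Its groups did not overlap (0.29 ± 0.066, adjusted p = 0.0264), but its probe sets gave adjusted p = 0.140 and 0.125 singly. Leaving out 1 array, the call of Sesn1 was lost without any of 6 arrays (highest adjusted p = 0.131), that of Irs1 without any of 5 (0.0926), that of Eif4ebp1 without any of 4 (0.0809), and that of Foxo3 without ZT23 replicate 3 or ZT15 replicate 2 (highest adjusted p = 0.0619).

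Autophagy and ubiquitin ligase genes had 3 falls and 0 rises among 26 (11.5%, against 1.69% of all genes). Of the 26 differences 20 lay below 0 (median -0.11, against -0.0054 for all genes). The falls were Usp2, Sqstm1 and Gabarapl1. Sqstm1, a receptor that hands cargo to autophagosomes, had -0.29, -0.40, -0.24 and -0.40 at ZT23, against 0.065, 0.12, 0.23 and 0.065 at ZT15. Gabarapl1, a protein of the autophagosome membrane, had -0.28, -0.52, -0.47 and -0.39 at ZT23, against 0.018, 0.066, -0.037 and 0.011 at ZT15. Neither pair of groups overlapped (Sqstm1 -0.45 ± 0.081, adjusted p = 0.00327; Gabarapl1 -0.43 ± 0.069, adjusted p = 0.00142), and all 3 calls were kept without any 1 of the 8 arrays. Of 33 genes of NAD, glutathione and redox balance 4 fell and 0 rose (12.1% called, median -0.050). These were Mt2, Nfe2l2, the regulator of the antioxidant response (-0.34 ± 0.059, adjusted p = 0.00241), its target Hmox1, which degrades heme (-0.36 ± 0.070, adjusted p = 0.00659), and Gsta3, a glutathione transferase (-0.41 ± 0.086, adjusted p = 0.0117). Nfe2l2 had -0.064, -0.0094, -0.11 and -0.075 at ZT23, against 0.21, 0.22, 0.35 and 0.33 at ZT15, and the groups did not overlap. The call of Gsta3 was lost without ZT23 replicate 3 or replicate 4 (highest adjusted p = 0.0543).

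The large machines of respiration and translation held 0 or 1 called gene per list, 0% to 2.17%, against 1.69% of all genes. At that share the few calls do not set these lists apart. Oxidative phosphorylation had 0 of 60 in limma's test, with 4 at an unadjusted p below 0.05, against 2700 of all 22180 genes. Of its differences 30 lay above and 30 below 0. Its smallest p-values were those of Sdhc (0.35 ± 0.11, adjusted p = 0.139) and Ndufb6 (-0.27 ± 0.085, adjusted p = 0.128). Ribosome biogenesis had 0 of 33, with 1 at an unadjusted p below 0.05. Of 46 cytosolic ribosomal proteins Rps16 fell (-0.46 ± 0.11, adjusted p = 0.0421), a call lost when any of 7 arrays was left out (highest adjusted p = 0.154). The median was -0.042. Ribosomal protein genes have many near-identical copies, so a probe set may read more than one.

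**Figure D3:**
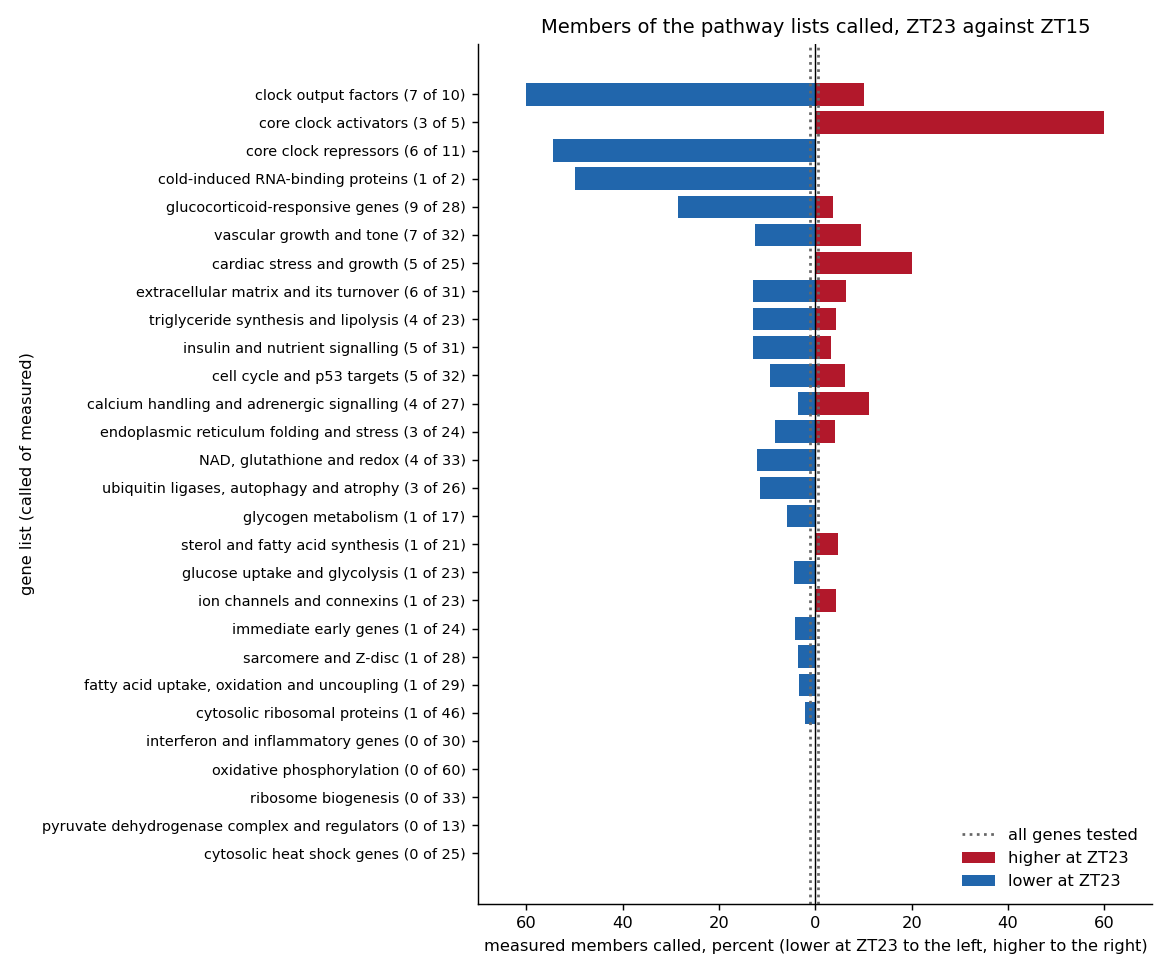
Share of the measured members of each of 28 pathway lists that were called lower (blue, to the left) or higher (red, to the right) at ZT23, in percent; called and measured members are given beside each name. Dotted lines mark all genes tested, 1.19% lower and 0.5% higher. The 3 clock lists have the largest shares, and 5 lists have no call.

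In the contractile apparatus, Tcap was the only called gene of 28 sarcomere and Z-disc genes (3.57%, against 1.69% of all genes). Tcap encodes telethonin, which caps titin at the Z-disc. It had -1.26, -1.19, -1.08 and -0.83 at ZT23, against 0.21, 0.44, 0.40 and 0.22 at ZT15. The groups were about a log2 unit apart at their nearest points (-1.41 ± 0.13, adjusted p = 6.56e-07, a 2.66-fold change). Lmod2, which nucleates thin filaments, had -0.28, -0.20, -0.27 and -0.36 at ZT23, against -0.28, -0.0053, 0.065 and 0.079 at ZT15. ZT15 replicate 1 lay among the ZT23 values and the other 3 did not (-0.24 ± 0.066, adjusted p = 0.0682). Without that array, singled out because its value ran against the difference, the adjusted p was 0.00272. In 13 of 17 alternative settings Lmod2 was not called. The median of the list was -0.028.

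Of 25 genes of cardiac stress and growth 5 were called (20%, against 1.69% of all genes), all of them higher at ZT23. Of the 25 differences 14 lay above and 11 below 0 (median 0.023). Rcan1, an inhibitor and target of calcineurin, had 0.54, 0.43, 0.52 and 0.30 at ZT23, against -0.56, -0.56, -0.48 and -0.56 at ZT15. The ZT15 values lay within 0.1 of each other and far below the ZT23 values (0.99 ± 0.10, adjusted p = 5.01e-06). Nppb, which encodes the natriuretic peptide BNP, had 0.62, 0.66, 0.22 and 0.31 at ZT23, against -1.01, -0.58, -0.45 and -0.041 at ZT15. The groups did not overlap, but ZT15 spread over about a log2 unit (0.97 ± 0.22, adjusted p = 0.0186), and the call was lost without any of 4 arrays, ZT15 replicate 1 among them (adjusted p = 0.0807). Ankrd23, a stretch-responsive titin-binding protein, had 0.38, 0.26, 0.040 and -0.022 at ZT23, against -0.61, -0.61, -0.25 and -0.31 at ZT15, with no overlap (0.61 ± 0.12, adjusted p = 0.00713; adjusted p = 0.0633 with the 8 arrays alone). Hdac9, a histone deacetylase that restrains growth (0.27 ± 0.064, adjusted p = 0.0309), and Srf, a transcription factor of muscle genes (0.29 ± 0.073, adjusted p = 0.0465), lost their calls without any of 5 and 7 arrays, ZT15 replicate 1 among them (highest adjusted p = 0.116 and 0.158). Rcan1 alone was called with the 8 arrays, and Rcan1 and Ankrd23 without ZT15 replicate 1.

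Calcium handling and adrenergic signalling had 3 rises and 1 fall among 27 genes (14.8%, against 1.69% of all genes), with a median of 0.031. Pde3a, a phosphodiesterase that degrades cyclic AMP, had 0.19, 0.053, 0.28 and 0.0090 at ZT23, against -0.54, -0.26, -0.12 and -0.33 at ZT15, with no overlap (0.44 ± 0.081, adjusted p = 0.0041; adjusted p = 0.0892 with the 8 arrays alone). Rrad, a small GTPase that inhibits the L-type calcium channel, had -0.20, 0.26, 0.34 and 0.22 at ZT23, against -0.31, -0.68, -0.76 and -0.15 at ZT15. ZT23 replicate 1 lay among the ZT15 values (0.63 ± 0.15, adjusted p = 0.0358), and the call was lost when any of 5 arrays was left out (highest adjusted p = 0.13). The adrenergic receptor Adra1b rose (0.33 ± 0.072, adjusted p = 0.0169) and the calcium release channel Itpr2 fell (-0.29 ± 0.060, adjusted p = 0.0125). Neither was called without ZT15 replicate 1 (adjusted p = 0.0558 and 0.0572) or without ZT23 replicate 4, and Adra1b also not without ZT23 replicate 1.

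Among 23 ion channels and connexins 1 was called (4.35%, against 1.69% of all genes). Gja1, which encodes the main connexin of ventricular gap junctions, had 0.23, 0.15, 0.10 and 0.032 at ZT23, against -0.70, -0.49, -0.35 and -0.22 at ZT15. Every ZT23 value was above every ZT15 value (0.57 ± 0.089, adjusted p = 0.00102), and the call was kept without any 1 of the 8 arrays. The potassium channel gene Kcna5 had -0.17, -0.033, -0.31 and -0.18 at ZT23, against 0.33, 0.22, 0.14 and -0.0095 at ZT15. There was no overlap, yet the difference missed the threshold (-0.34 ± 0.10, adjusted p = 0.0994).

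Extracellular matrix genes had 4 falls and 2 rises among 31 (19.4%, against 1.69% of all genes), with a median of -0.028. The falls included 2 metalloproteinase inhibitors and the metalloproteinase gene Adamts1, while the metalloproteinase gene Mmp14 rose. Timp3 had -0.25, -0.15, -0.24 and -0.25 at ZT23, against 0.81, 0.56, 0.85 and 0.62 at ZT15. Its groups were more than 0.6 apart (-0.93 ± 0.086, adjusted p = 9.3e-07). Timp2, a second inhibitor, had -0.15, -0.23, -0.0080 and -0.12 at ZT23, against 0.22, 0.12, 0.29 and 0.20 at ZT15 and also did not overlap (-0.33 ± 0.063, adjusted p = 0.00488). Mmp14, a membrane-bound metalloproteinase, had 0.26, 0.11, 0.40 and 0.038 at ZT23, against -0.15, -0.44, -0.16 and -0.32 at ZT15, with no overlap (0.47 ± 0.079, adjusted p = 0.00209; adjusted p = 0.0737 with the 8 arrays alone). The fibronectin gene Fn1 fell (-0.33 ± 0.077, adjusted p = 0.0248), as did the metalloproteinase gene Adamts1 (-0.48 ± 0.12, adjusted p = 0.0449). The call of Fn1 was lost without any of 4 arrays (highest adjusted p = 0.0821) and that of Adamts1 without any 1 of the 8 (highest adjusted p = 0.153). Spon2, described above, was the other rise.

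Vascular genes had 4 falls and 3 rises among 32 (21.9%, against 1.69% of all genes), with a median of 0.0049. Among them 2 receptors of vascular endothelial growth factor went opposite ways. Kdr, which encodes the signalling receptor VEGFR2, had 0.068, 0.17, 0.30 and 0.045 at ZT23, against -0.34, -0.26, -0.47 and -0.16 at ZT15. Flt1, which encodes VEGFR1 and can act as a decoy, had -0.13, -0.088, -0.22 and -0.12 at ZT23, against 0.57, 0.42, 0.30 and 0.26 at ZT15. In both genes the groups did not overlap (Kdr 0.45 ± 0.075, adjusted p = 0.00172; Flt1 -0.53 ± 0.073, adjusted p = 0.000268). Angpt1, a ligand of the TIE2 receptor, rose (0.58 ± 0.10, adjusted p = 0.00304), with adjusted p = 0.00334 and 0.0626 in its 2 probe sets. Ace, the angiotensin-converting enzyme, had 0.058, 0.0020, -0.055 and -0.0020 at ZT23, against 0.38, 0.39, 0.55 and 0.37 at ZT15. The ZT23 values lay at the daily median and all ZT15 values above it (-0.42 ± 0.065, adjusted p = 0.000906). Ramp2, a co-receptor for adrenomedullin, fell (-0.31 ± 0.058, adjusted p = 0.0044; adjusted p = 0.053 with the 8 arrays alone).

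The oxygen-regulated transcription factors of the same list were split. Hif1a had -0.013, 0.22, 0.13 and 0.080 at ZT23, against -0.20, -0.11, -0.20 and -0.13 at ZT15 and rose (0.26 ± 0.050, adjusted p = 0.00517), and singly its probe sets gave adjusted p = 0.00125 and adjusted p = 0.409. Epas1, which encodes HIF-2 alpha and is named here after its values were seen, had -0.060, -0.13, -0.10 and -0.053 at ZT23, against 0.11, 0.18, 0.19 and 0.13 at ZT15 and fell (-0.24 ± 0.049, adjusted p = 0.00955). Neither gene had overlapping groups, and with the 8 arrays alone Hif1a was not called (adjusted p = 0.0892).

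Lists of early response, immune and cell cycle genes held 1, 0 and 5 called genes (4.17%, 0% and 15.6%, against 1.69% of all genes). Of 24 immediate early genes Ier3, which responds to stress, fell (-0.60 ± 0.14, adjusted p = 0.0282), with values of 0.0015, -0.028, 0.026 and 0.38 at ZT23, against 0.39, 0.77, 0.77 and 0.86 at ZT15. ZT23 replicate 4 was far above the rest of its group and just below ZT15 replicate 1, and the call was lost when any of 6 arrays was left out (highest adjusted p = 0.0874). Klf2, a flow-responsive factor of endothelium, differed by -0.35 ± 0.12 (adjusted p = 0.178). Of 30 interferon and inflammatory genes 0 were called in limma's test. At an unadjusted p below 0.05 there were 4, against 2700 of all 22180 genes, and 23 of 30 differences lay below 0 (median -0.060). Cell cycle genes and p53 targets had 3 falls and 2 rises among 32 (median -0.10). The falls were Wee1, Sesn1 and Ccnd1, which encodes cyclin D1. Ccnd1 had -0.19, -0.26, -0.46 and -0.30 at ZT23, against 0.40, 0.25, 0.11 and 0.19 at ZT15, with no overlap (-0.54 ± 0.10, adjusted p = 0.00638; adjusted p = 0.0742 without the 3 arrays of largest SD). The rises were Cdkn1a and Trp53i11, while 24 of the 32 differences of the list lay below 0. Trp53i11 had 0.33, 0.56, 0.37 and 0.59 at ZT23, against -0.65, -0.30, -0.18 and -0.022 at ZT15, and its groups did not overlap (0.75 ± 0.14, adjusted p = 0.00398).

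Markers of cell types were examined on the same arrays. Over all genes 1.69% were called, and 2700 of 22180 had an unadjusted p below 0.05. In bulk tissue, fewer cells of a type and less RNA per cell cannot be told apart. No gene was called in limma's test among 12 markers of ventricular cardiomyocytes (range of differences -0.12 to 0.039) or 9 of atrial cardiomyocytes (-0.16 to 0.14), and none of these had an unadjusted p below 0.05. Fibroblast markers were lower at ZT23 in 12 of 12 differences, 5 of them with an unadjusted p below 0.05 (median -0.15), though only Gsn was called (-0.22 ± 0.055, adjusted p = 0.0433), with overlapping groups and a call lost when any of 6 arrays was left out (highest adjusted p = 0.152). The mean of the fibroblast list was -0.11, -0.012, -0.054 and -0.093 at ZT23, against 0.14, -0.018, 0.19 and 0.021 at ZT15. ZT15 replicates 2 and 4 lay close to the ZT23 values and replicates 1 and 3 above them.

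Endothelial markers had 2 falls and 1 rise among 12 (25% called, against 1.69% of all genes, median -0.23). Eng, a co-receptor for transforming growth factor beta, had -0.0060, 0.015, -0.057 and -0.14 at ZT23, against 0.42, 0.20, 0.38 and 0.21 at ZT15, with no overlap (-0.35 ± 0.069, adjusted p = 0.00742; adjusted p = 0.0821 without the 3 arrays of largest SD). Fabp4, a fatty acid carrier of capillaries and fat cells, fell (-0.44 ± 0.086, adjusted p = 0.00705), while Kdr rose. The Fabp4 groups overlapped, with ZT23 replicate 1 above ZT15 replicate 3, and its call was lost without the 3 arrays. The list mean was -0.044, -0.037, -0.040 and -0.14 at ZT23, against 0.19, 0.0010, 0.0044 and -0.0010 at ZT15. All 4 ZT15 means lay above all 4 ZT23 means, with ZT15 replicate 1 the highest and ZT23 replicate 4 the lowest. Of the 12 markers 8 had an unadjusted p below 0.05, against 2700 of all 22180 genes. The part of these shifts in the vascular genes above was not tested. Kdr and Flt1 were both called without ZT15 replicate 1 (adjusted p = 0.00672 and 0.00152) and without the 3 arrays (adjusted p = 0.00371 and 0.00177). The ZT15 list means still lay above all ZT23 means without ZT15 replicate 1, so these calls do not bear on that part.

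Macrophage markers had 2 falls and 0 rises among 12 (16.7%, against 1.69% of all genes), with a median of -0.12. At an unadjusted p below 0.05 there were 5, against 2700 of all 22180 genes. Lyve1, a hyaluronan receptor of resident macrophages and lymphatic vessels, had 0.011, -0.014, -0.0089 and -0.012 at ZT23, against 0.32, 0.46, 0.85 and 0.58 at ZT15. The ZT23 values lay within 0.03 of each other at the daily median, and every ZT15 value was higher (-0.56 ± 0.10, adjusted p = 0.00327). Cd163, a scavenger receptor, had -0.11, 0.26, -0.35 and -0.42 at ZT23, against 0.42, 0.27, 0.47 and 0.58 at ZT15. ZT23 replicate 2 lay just below the lowest ZT15 value (-0.59 ± 0.10, adjusted p = 0.00246; adjusted p = 0.128 with the 8 arrays alone). The list mean was -0.0092, 0.11, -0.051 and 0.0063 at ZT23, against 0.095, 0.076, 0.20 and 0.15 at ZT15, and these groups overlapped. Smooth muscle and pericyte markers had 1 fall among 10, that of Pdgfrb (-0.43 ± 0.10, adjusted p = 0.0338), a call lost when any of 5 arrays was left out (highest adjusted p = 0.132).

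Adipocyte markers had 1 rise, the hormone gene Retn (0.35 ± 0.071, adjusted p = 0.0105), and 1 fall, Fabp4, among 10, and neither was called with the 8 arrays alone (adjusted p = 0.165 and 0.166). Platelet markers gave 0 calls among 17 in limma's test, with 1 at an unadjusted p below 0.05. Their mean was 0.37, 0.056, 0.28 and 0.39 at ZT23, against 0.78, 0.058, -0.044 and 0.24 at ZT15. ZT15 replicate 1 was far above every other array, and the other 3 ZT15 arrays overlapped the ZT23 arrays. No marker was called among 11 of neutrophils, 9 of lymphocytes, 1 of red cells, 11 of skeletal muscle, 8 of lung, 5 of thymus, 6 of Schwann cells and neurons or 7 of mesothelium; at an unadjusted p below 0.05 there was 1 of skeletal muscle and 1 of lung.

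**Figure D4:**
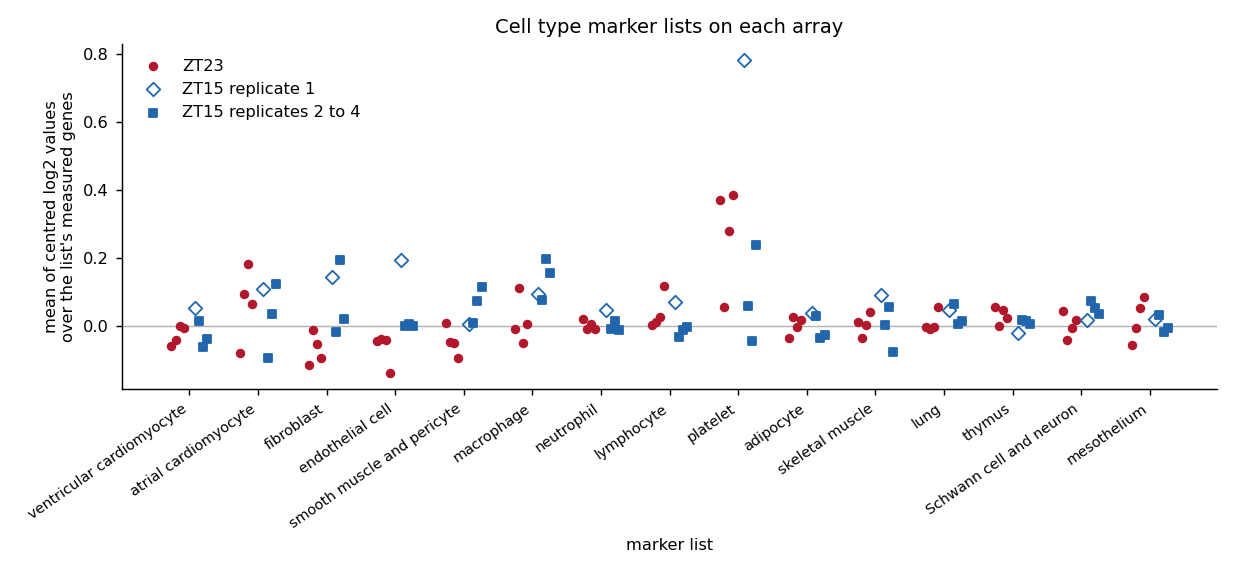
Mean of the centred log2 values over the measured genes of each marker list, for each ZT23 and ZT15 array. The red cell list, with 1 measured gene, is not drawn. Red circles are ZT23 arrays, filled blue squares ZT15 replicates 2 to 4 and open diamonds ZT15 replicate 1. The platelet mean of ZT15 replicate 1 is 0.78, the highest in the plot, and its endothelial mean of 0.19 is above the other arrays of that list.

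The arrays at ZT19 show the middle of the dark phase. Their values did not enter the difference between ZT23 and ZT15, though they entered the estimate of the spread and so the choice of called genes, and the ends of the course chose those genes and are no test. The ZT19 mean lay between the means of ZT15 and ZT23 in 353 of 374 called genes (94.4%) and outside them in 21. The median gene had covered 52.8% of its change by ZT19, which was 57.6% for genes that rose and 51.0% for genes that fell. Limma's test of ZT19 against the mean of ZT15 and ZT23 called 0 genes, with 1567 at an unadjusted p below 0.05 and a smallest adjusted p of 0.143.

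Arntl climbed through the night, with -0.97 ± 0.042 at ZT15, 0.33 ± 0.22 at ZT19 and 1.30 ± 0.13 at ZT23 (SD, n = 4). Dbp had 0.42 ± 0.22 at ZT15, -0.35 ± 0.11 at ZT19 and -1.08 ± 0.17 at ZT23, and Per3 0.49 ± 0.053 at ZT15, -0.19 ± 0.033 at ZT19 and -0.87 ± 0.095 at ZT23; all 3 genes were near the middle of their course at ZT19. Spon2 had -0.15 ± 0.17 at ZT15, -0.028 ± 0.062 at ZT19 and 0.88 ± 0.16 at ZT23, so its ZT19 values were close to those of ZT15. Epha4, in contrast, had -0.73 ± 0.15 at ZT15, 0.13 ± 0.11 at ZT19 and 0.23 ± 0.11 at ZT23, and was already near its ZT23 values. Zbtb16 had 0.91 ± 0.35 at ZT15, -0.073 ± 0.11 at ZT19 and -0.35 ± 0.35 at ZT23, with most of its fall before ZT19. Departures from the middle were tested for each of these genes and none passed.

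Of the 87 named genes called, 6 had a ZT19 mean outside the ends, and 5 of them fell. Nr1d1 had -0.30 ± 0.22 at ZT15, -1.44 ± 0.20 at ZT19 and -1.12 ± 0.27 at ZT23. Its lowest point was at ZT19, with a departure of -0.73 ± 0.12 from the mean of the ends (SE, adjusted p = 0.143). Gabarapl1 had 0.014 ± 0.042 at ZT15, -0.45 ± 0.11 at ZT19 and -0.42 ± 0.11 at ZT23, and Ciart 0.33 ± 0.20 at ZT15, -0.35 ± 0.069 at ZT19 and -0.33 ± 0.13 at ZT23. In Gabarapl1 and Ciart the difference between ZT19 and ZT23 was smaller than the SD of either group. The others were Ramp2, Pnpla2 and Lpin1, and none of the 6 departures passed (adjusted p of 0.143 to 0.624).

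**Figure D5:**
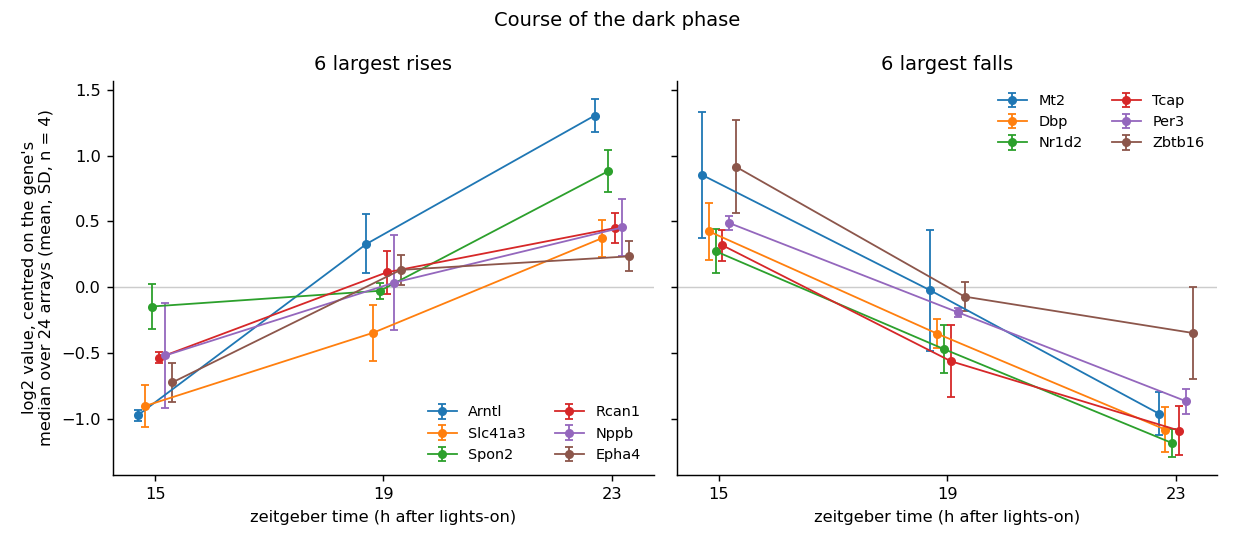
Means with SD (n = 4 arrays) at ZT15, ZT19 and ZT23 for the 6 genes with the largest rises (left) and the 6 with the largest falls (right), in log2 units relative to each gene's median over 24 arrays. Points are shifted sideways so that bars can be told apart. All 12 ZT19 means lie between those of ZT15 and ZT23.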

How the data were processed

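Gene expression in mouse hearts was measured on 24 arrays, 4 at each of 6 zeitgeber times. The deposited values are log2 values per probe set; base 2, and that higher means more RNA, are assumptions. Summarisation, normalization and software: not given in the sources used here. Each probe set's deposited median over the 24 arrays is 0 within 5e-07, so no level, signal over background or filter on dim genes was available, and the number of arrays limits the precision. Of 34351 probe sets, 23521 name 1 gene in the platform annotation, 1814 several and 9016 none. Identifiers of 23328 were found in a RefSeq table of GRCm38.p6, which changed 0 symbols. Probe sets were averaged per gene, giving 22180 genes, 1082 of them from more than 1 probe set.

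The contrast ZT23 minus ZT15 was tested with limma 3.58.1 under R 4.3.3, in 1 fit of 6 time means over 24 arrays (18 residual degrees of freedom) with Benjamini-Hochberg adjustment over all genes. "Called" means an adjusted p below 0.05. The fit was tested on simulated data. Groups come from the labels; no batch is named there, so a batch shared by the arrays of one time cannot be told apart from time. The labels call the arrays biological replicates without tying each to 1 mouse, so p-values measure the spread between these samples.

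Named genes were the 15 largest rises and falls, all measured clock genes, and up to 6 called members of each of 28 pathway and 16 marker lists, or the 2 smallest p-values where fewer than 2 were called; predicted genes were left out, and 1 of the 15 largest falls is not reported here. Lists, members and tests were chosen with earlier results of these data known. Alternatives were the 8 arrays alone, the replicate number as a block, array weights, robust moderation, quantile normalization, median centring, single probe sets, protein-coding genes only, and leaving out arrays.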

Additional observations from a re-analysis of the deposited data

Results flagged for a closer look

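Values of 4 arrays were screened for 1 value far from the other 3, by a rule under which about 1 group in 20 is picked out by chance. Of 368 groups of named genes, list means and array SDs, 23 were picked out.

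At ZT23 the single genes were Mt2 in replicate 3 (-1.20), Timp3 in replicate 2 (-0.15), Ciart in replicate 4 (-0.13), Ier3 in replicate 4 (0.38), Hspa1a in replicate 4 (0.67), Tnnt3, a fast skeletal troponin, in replicate 3 (0.15), Nfil3 in replicate 3 (0.22) and Slc41a3 in replicate 1 (0.16). At ZT15 they were Nr1d2 in replicate 1 (0.024), Zbtb16 in replicate 4 (0.39), Ace in replicate 3 (0.55), the pyruvate carrier gene Mpc1 in replicate 2 (0.12), Hspa5 in replicate 2 (-0.25), Elovl6 in replicate 1 (-0.21), Cdkn1a in replicate 3 (0.20) and Rcan1 in replicate 3 (-0.48).

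List means far from the other 3 were those of interferon and inflammatory genes in ZT23 replicate 2 (-0.0031), of endothelial markers in ZT23 replicate 4 (-0.14) and of lung markers in ZT23 replicate 4 (0.056). In ZT15 replicate 1 they were core clock repressors (0.076), glycogen metabolism (-0.043) and endothelial markers (0.19), and the SD of all its probe sets (0.171) was also far from the other 3. Hspa1a was not called with all arrays (adjusted p = 0.1) and was called without ZT23 replicate 4 (adjusted p = 0.00167), whose value ran against the difference. It was not called in 14 of 17 alternative settings.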

How the results depend on the processing

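Against 374 calls, 146 genes were called with the 8 arrays alone (37 higher, 109 lower; 131 among the 374) and 201 without the 3 arrays of largest SD (65 higher, 136 lower; 172 among the 374); with fewer arrays the spread rests on fewer degrees of freedom. Leaving out 1 array at a time gave 251 to 369 calls, 66 to 130 higher and 169 to 239 lower. The fewest in all and the fewest higher came without ZT15 replicate 1, and the fewest lower without ZT23 replicate 4. The other settings gave 295 to 384. In the test of ZT19 against the ends 0 to 1 gene was called when 1 array was left out. With the replicate number as a block 331 genes were called, 309 of them among the 374. The numbers share no source in the labels, and same-numbered ZT23 and ZT15 arrays did not deviate together (correlations -0.13, -0.017, -0.011 and -0.14; none of the 4 ZT23 arrays correlated best with its own number), so they were not treated as pairs.

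Of 87 named genes called, 39 stayed called in every setting, 68 without ZT15 replicate 1, 59 without the 3 arrays and 48 with the 8 alone; 48 lost the call in at least 1 setting. The calls of Adamts1 and Sel1l were lost without any 1 of the 8 arrays. Other calls were also lost on leaving out 1 array, and only some are listed here. Those of Srf, Ppp1r3b and Rps16, given with their lists above, were lost more often than the following. Nppb was lost without replicate 1 or 2 of either time, and Wee1 without ZT23 replicate 3 or 4 or ZT15 replicate 4. Ppara was lost without ZT23 replicate 3 or 4 or ZT15 replicate 2 or 3. Rrad was lost without ZT23 replicate 2, 3 or 4 or ZT15 replicate 2 or 3. Fn1 was lost without ZT23 replicate 1 or 4 or ZT15 replicate 1 or 3, and Lpin1 without ZT23 replicate 3 or ZT15 replicate 1. Signs turned only in genes that were not called. Leaving out 1 array, Klf10 lay between -0.061 and 0.056, Fbxl21 between -0.025 and 0.015, Srsf5 between -0.0066 and 0.074, the platelet gene Alox12 between -0.29 and 0.015 and the red cell gene Slc4a1 between -0.17 and 0.050, which was 0.026 without the 3 arrays. The causes were not tested. Signal over background is not known for any gene, so a low signal may limit a call.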

Other observations

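Probe sets outside the gene table also differed between the times. Of 9016 probe sets with no gene name 45 were called in a test over all 34351, 23 of them higher at ZT23, and of 1814 that name several genes 13 were called, 4 of them higher. Among probe sets with 1 gene, 320 of 23521 were called, 88 of them higher. The share that was higher was thus largest among the unnamed probe sets, a difference that was not tested. Of the 374 called genes, 362 were protein-coding, against 18964 of all 22180 genes. Of 80 small nucleolar RNAs 2 were called, against 1.69% of all genes. On none of the 44 gene lists stood 295 of the called genes, and the share of all genes off the lists was not counted.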
